A study of Mus musculus with 22 samples.

Results

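Most of the mouse genome carries dense cytosine methylation at CpG dinucleotides, and CpG islands are the short, CpG-rich stretches that stay free of it. Most islands lie over gene promoters, but some, called orphan islands, lie away from any annotated promoter, and many of these are known to sit at enhancers, at unannotated start sites or in the Polycomb-bound surroundings of developmental genes. Levels were measured by reduced representation bisulfite sequencing (RRBS), in which the enzyme MspI cuts the DNA at CCGG, fragments are size-selected, and bisulfite turns unmethylated cytosine into a base that is read as T. Unmethylated CpG-dense DNA far from genes was taken here as the 100 bp windows (tiles) that met a fixed rule, which found 1108 of the 114689 autosomal tiles analysed. A tile had to lie outside every RefSeq gene and pseudogene and at least 5 kb from any transcription start site, to hold at least 5 distinct CpGs, and to have at least 2 CpGs at 10 or more reads in at least 5 samples per condition. Its coverage-weighted level in the control forebrains had to be at most 20%. The control level therefore chose these tiles, and every value that compares controls with EtOH-exposed forebrains below is given as a description.

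The samples were forebrains of wild type C57BL/6 embryos at embryonic day 10.5, 6 from control and 16 from EtOH-exposed pregnancies. The study chose embryos of both sexes, of similar size and without visible defects, so exposed embryos with defects are not covered here. Dams received 2 subcutaneous injections, 2 h apart, at embryonic day 2.5, of saline for the controls or of 2.5 g/kg ethanol for the EtOH-exposed group. The embryos came from 3 control and 6 EtOH-exposed litters, but the labels do not say which embryo came from which litter or of which sex, so litter and exposure cannot be told apart, and a p-value that takes in the spread between embryos measures the spread between these samples, while the q of the logistic test below counts reads only. The DNA came from whole forebrain tissue, so a level is an average over its cells.

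The libraries held 68126469 to 132488556 read calls in the controls and 89179413 to 216223892 in the EtOH-exposed group. At 30633 promoter tiles, which met the same limits on CpGs and level but lay within 1000 bp upstream or 100 bp downstream of a start site, the mean level of a library ran from 0.911% to 1.79% in the controls. It was 2.62% to 2.78% in EtOH 4, 5 and 6, which is above every control, and 0.427% to 0.520% in EtOH 1, 2, 3, 9, 12 and 14, which is below every control. The other 7 EtOH-exposed libraries lay within the range of the controls. In 5 libraries, Ctrl 6 and EtOH 4, 5, 6 and 16, calls covered 3053264 to 4067896 autosomal positions, against 1458828 to 2392537 in the other 17 (the 5 are called broad libraries below). No pair of libraries agreed within sampling noise: the closest, Ctrl 6 and EtOH 16, had a chi-square of 1.57 per tile over 37723 tiles.

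The 5 tiles below show what this DNA looks like. They are the CpG-richest tiles of 4 of the 10 largest clusters, those near Lncppara and Cbx8, which held the most tiles, and those near the homeobox genes Uncx and Mnx1, and the single tile called a differentially methylated region (DMR), near Prr5. Each is the plus strand of the GRCm38 (mm10) reference, 5′ to 3′, with every CpG in capitals. A CpG that straddles the edge of a tile counts in the calls but is not whole in the printed letters.
Lncppara tile, chr15:85670801-85670900: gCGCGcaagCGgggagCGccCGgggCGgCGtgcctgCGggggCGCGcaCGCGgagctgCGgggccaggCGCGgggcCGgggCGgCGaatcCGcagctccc
Cbx8 tile, chr11:119053301-119053400: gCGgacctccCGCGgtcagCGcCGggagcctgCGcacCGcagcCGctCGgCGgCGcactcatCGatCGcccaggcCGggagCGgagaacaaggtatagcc
Uncx tile, chr5:139553201-139553300: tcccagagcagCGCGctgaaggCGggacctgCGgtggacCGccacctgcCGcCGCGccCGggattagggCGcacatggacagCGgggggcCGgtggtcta
Mnx1 tile, chr5:29468001-29468100: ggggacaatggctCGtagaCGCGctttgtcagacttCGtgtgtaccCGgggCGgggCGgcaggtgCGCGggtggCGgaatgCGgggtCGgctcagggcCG
Prr5 tile, chr15:84654101-84654200: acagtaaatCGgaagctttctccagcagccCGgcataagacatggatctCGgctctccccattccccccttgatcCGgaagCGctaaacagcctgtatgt

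The Lncppara tile held 19 CpGs in its 100 bp at a GC content of 86%, the Cbx8 tile 15 at 74%, the Uncx tile 12 at 74% and the Mnx1 tile 13 at 71%. The Prr5 tile held only 5, the fewest the rule allows, at a GC content of 54%. Over all 1108 tiles the median was 8 CpGs with calls, the most was 23, and the median GC content was 66%. The 500 bp around a tile had the composition of a CpG island (GC content of at least 50% and an observed to expected CpG ratio of at least 0.6) for 62.7% of the tiles. This was less often than for the promoter tiles (92.6%) and more often than for the 5146 methylated CpG-dense tiles far from genes (20.1%), which met the same rule but for a control level above 20%.

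The number of CpGs went with the level of tiles far from genes. Of all 18271 such tiles, those with 2 CpGs had a control level of at most 20% in 5.70% of cases, those with 5 to 6 in 11.1% and those with 7 to 9 in 17.1%. The share was 56.7% of 328 tiles with 10 to 12 CpGs and 92.7% of 177 tiles with 13 or more, so that the median control level was 93.4% in tiles with 7 to 9 CpGs and 1.15% in tiles with 13 or more. Levels between these extremes were uncommon. Of the 6254 tiles far from genes with at least 5 CpGs, 970 were under 5%, 138 at 5 to 20%, 515 between 20% and 80%, and 4631 at 80% or above.

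**Figure D1:**
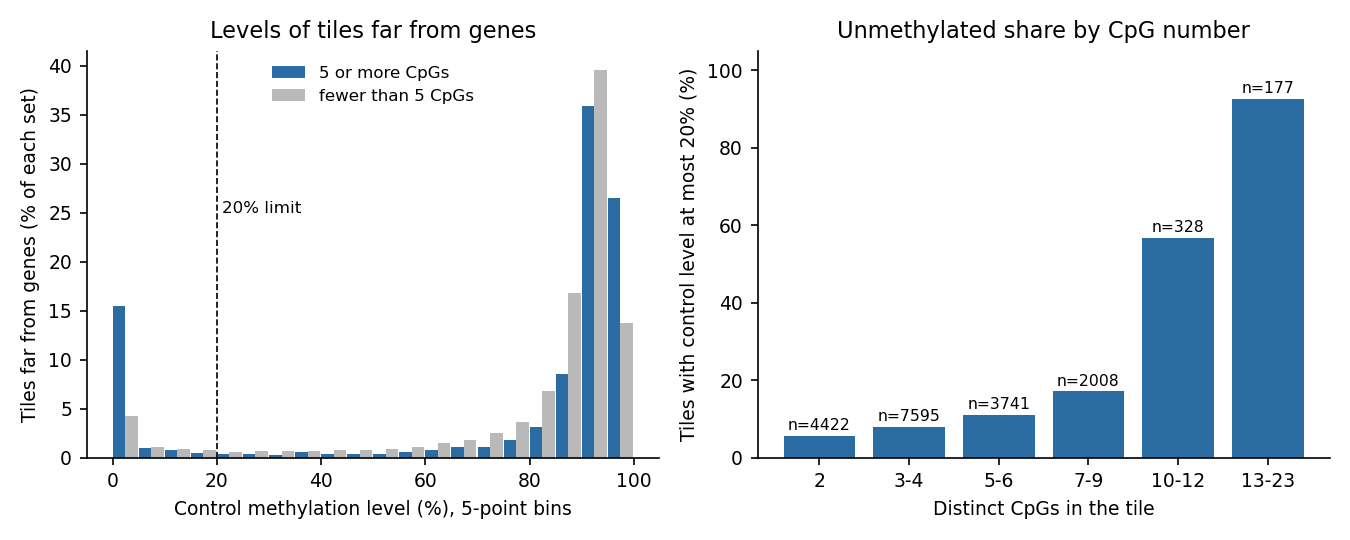
Left, the share of tiles far from genes (y axis, % of each set) in 5-point bins of the control methylation level (x axis, %), for 6254 tiles with 5 or more CpGs (blue) and 12017 with fewer (grey); the dashed line is the 20% limit. Right, the share of tiles with a control level of at most 20% (y axis, %) by the number of distinct CpGs (x axis), which rises from 5.70% at 2 CpGs to 92.7% at 13 or more.

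The tiles were almost free of repeats. Only 4 of the 1108 (0.361%) had 50 or more of their bases repeat-masked in the reference, against 3918 of the 5146 methylated CpG-dense tiles far from genes (76.1%) and 256 of the 30633 promoter tiles (0.836%). The letters GGGCGG, part of the GC box that Sp family factors are known to bind, were present on either strand in 30.6% of the tiles, 39.1% of the promoter tiles, 12.7% of the methylated tiles far from genes and 19.7% of all analysed tiles. The letters TAATTA, the core read by many homeodomain proteins, were in 1.62% (18 tiles), against 0.166% of the promoter tiles, 0.649% of all analysed tiles and 2.46% of the 853 unmethylated tiles far from genes with fewer than 5 CpGs. CANNTG, the E-box core that basic helix-loop-helix proteins read, was in 29.4% of the tiles, 22.4% of the promoter tiles and 33.0% of all tiles. The cutting site CCGG was in 93.1% and may overlap the ETS-type letters CCGGAAG, which were in 3.88% of the tiles and 5.19% of all tiles. TGCGCA, the core of the NRF1 motif, was in 3.16% and 2.55%, and TGACGT, the core of the cAMP response element, in 2.53% and 1.87%. These are matches of letters in 100 bp and not observed binding.

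Unmethylated DNA did not stop at the tile's edge. Tiles that were not chosen but touched a chosen tile, and were also far from genes, had a median of 3 CpGs and a median control level of 2.23% (quartiles 1.26% and 5.02%, n = 216), and 91.2% of them were at or under 20%. At a gap of 500 to 900 bp the median was 42.5% (n = 34). At 1000 to 1900 bp it was 66.1% (n = 47), and at 2000 to 3900 bp 78.0% (n = 75), where the quartiles were 40.7% and 88.4%. A touching tile with 5 or more CpGs and a control level of at most 20% would itself have been chosen, so these surroundings hold CpG-poor or methylated tiles only.

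**Figure D2:**
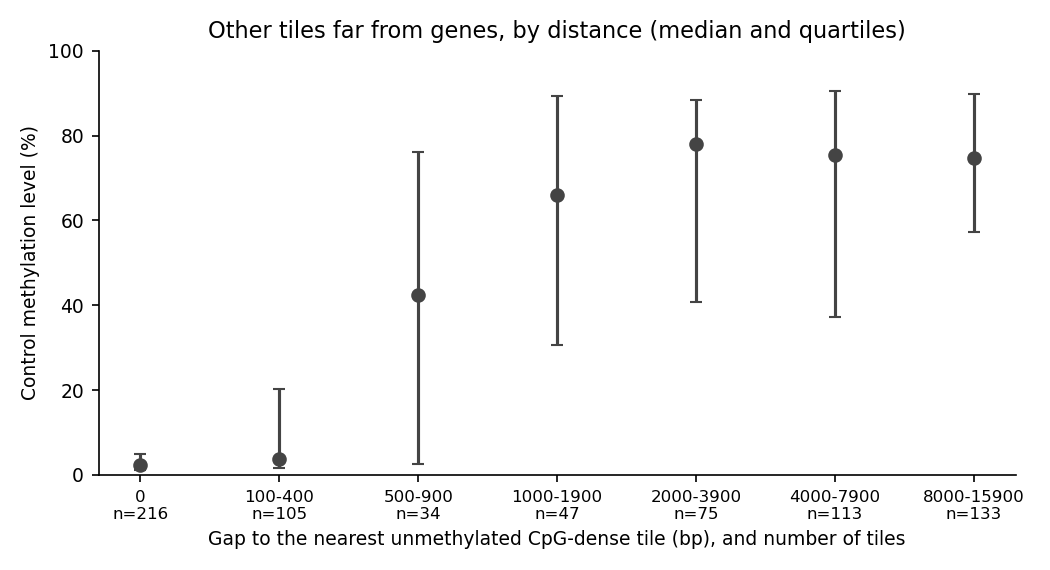
Control methylation level (y axis, %) of other tiles far from genes by their gap to the nearest unmethylated CpG-dense tile (x axis, bp); points are medians and bars the quartiles. The median goes from 2.23% at tiles that touch a chosen tile to 66.1% at a gap of 1000 to 1900 bp.

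The tiles grouped along the genome. Joined where the gap was at most 2000 bp, they formed 552 clusters, of which 286 held a single tile, 127 held 2 tiles and 38 held 5 or more. These 38 held 234 of the 1108 tiles, and 683 tiles (61.6%) touched another chosen tile. The methylated CpG-dense tiles far from genes had 1.34 tiles per cluster and the promoter tiles 3.08, against 2.01 here. Chosen tiles lay on all 19 autosomes and made up from 8.09% of the CpG-dense tiles far from genes on chromosome 10 to 30.7% on chromosome 11.

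The clusters near Cbx8 and Lncppara held 12 tiles each. Cbx8 encodes a chromodomain subunit of Polycomb repressive complex 1, and its cluster ran over 4900 bp (chr11:119053301-119058200, 116 CpGs) from 12388 bp beyond the nearest start site. The 12 tiles had control levels of 0.742% to 2.74%. The Lncppara cluster was denser, with 179 CpGs in 1400 bp (chr15:85670601-85672000), 31773 bp from the start of this long noncoding RNA gene and 62910 bp from that of Ppara, the fatty acid sensor of liver. Its control levels ran from 0.648% to 8.82%.

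Clusters of 8 tiles lay near Uncx (chr5:139551801-139555400), Lbx1 (chr19:45229401-45231600), Cdkn1c (chr7:143445201-143446100), Mirlet7a-1 (chr13:48545501-48546900) and Gm31473 (chr2:92058501-92060000). Uncx and Lbx1 encode homeodomain factors of the somites and of the spinal cord and muscle precursors. Cdkn1c encodes an imprinted inhibitor of the cell cycle, and Mirlet7a-1 a let-7 microRNA. A cluster of 7 tiles near AA387200 lay 32329 bp from Scrt2, a neuronal zinc finger gene, and clusters of 6 lay near Gm39914 and Mnx1, the homeobox gene of motor neurons and pancreas. The annotation behind "far from genes" matters for some of them. In GENCODE, which lists more transcripts, the Lncppara cluster lay inside the Lncppara gene, 16985 bp from its start, the Mirlet7a-1 cluster reached a start site, the Gm31473 cluster came within 132 bp of the start of 2900072N19Rik and the Cdkn1c cluster within 1505 bp of that of Gm27901. In all, 209 of the 1108 tiles (18.9%) lay inside a GENCODE gene, 191 within 1 kb of a GENCODE start site, and 754 were outside GENCODE genes and at least 5 kb from their start sites.

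Developmental regulators were common among the nearest genes. The nearest protein-coding gene belonged to a list of developmental families (homeobox, paired box, SOX, forkhead, T-box, basic helix-loop-helix, developmental zinc finger and nuclear receptor genes, signalling molecules and other factors) for 287 of the 1108 tiles (25.9%). The share was 6.02% for the promoter tiles, 6.24% for the methylated CpG-dense tiles far from genes, 19.8% for the 853 CpG-poor unmethylated tiles far from genes, and 7.77% for all analysed tiles. By clusters, which do not count neighbouring tiles more than once, it was 136 of 552 (24.6%), against 6.62% of the clusters of methylated tiles. The tiles reached 98 of the 574 developmental genes (17.1%) and 484 of all 20558 protein-coding genes (2.35%). Genes with long empty flanks have more room for such tiles, and gene spacing was not accounted for.

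Homeobox genes were the largest of these families, nearest to 119 tiles in 58 clusters. Basic helix-loop-helix genes were nearest to 34 tiles and forkhead genes to 33, and paired box and T-box genes to 13 each. Uncx had the most tiles of any listed gene, 12 in 4 clusters, followed by Pax2, a paired box gene of the midbrain-hindbrain boundary, eye and kidney, with 11 in 4 clusters, and Wnt7b, a secreted signal of the nervous system and lung, with 10 in 3. Foxa1, Foxd1, Hes1, Irx5, Msx3 and Neurog1 had 7 each. Several of the genes reached are known regulators of the forebrain and eye, among them Six6 and Nr2f2 (6 tiles each), Pou3f2, Barhl2 and Lhx5 (5 each), and Otx2 and Tbr1 (4 each).

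**Figure D3:**
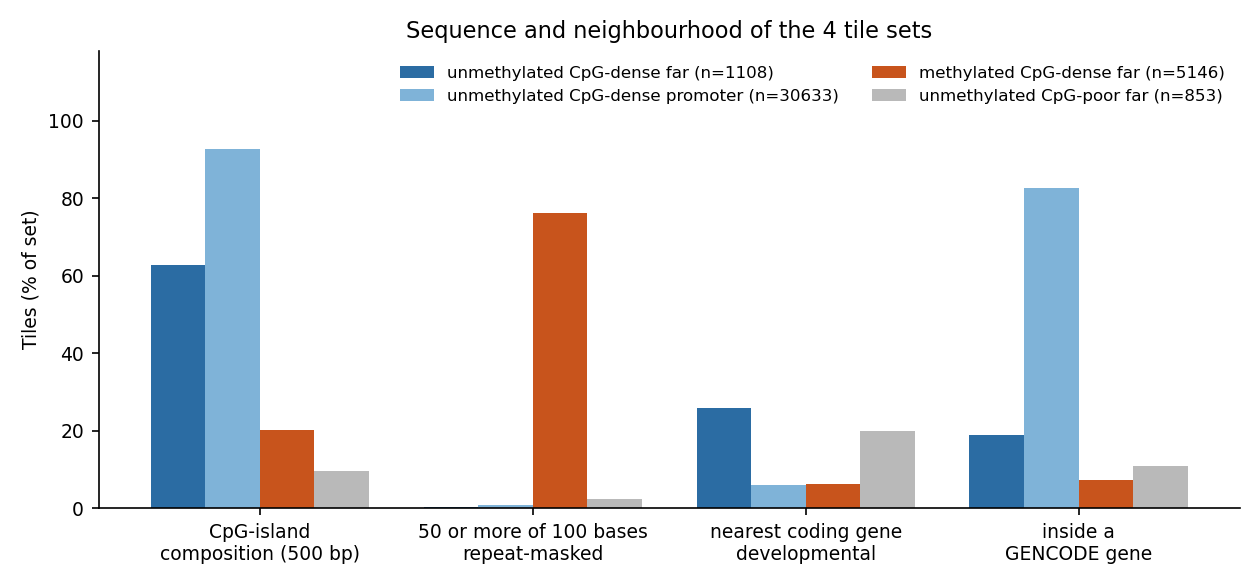
Share of tiles (y axis, % of the set) with the composition of a CpG island over 500 bp, with 50 or more bases repeat-masked, with a developmental nearest protein-coding gene, and inside a GENCODE gene (x axis), for the unmethylated CpG-dense tiles far from genes and 3 other sets. Repeat masking marks 0.361% of the chosen tiles and 76.1% of their methylated counterparts, and 25.9% against 6.24% have a developmental nearest gene.

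Some tiles lay far from any RefSeq start site. The median distance was 12112 bp, 692 tiles were at least 10 kb away, 75 at least 50 kb and 9 at least 100 kb. The farthest, chr13:116706101-116706200, was 131978 bp from 4930435F18Rik and 318770 bp from Parp8 in RefSeq but 28396 bp from the GENCODE start site of Gm47914, and had a control level of 1.38% and an EtOH-exposed level of 0.898%. A cluster of 6 tiles with 83 CpGs (chr8:92460301-92461100) lay 102505 bp from Irx5, an Iroquois homeobox gene, but 4667 bp from the GENCODE start site of Gm45336, and its tiles had control levels of 1.03% to 2.11%. In 19 tiles in 10 clusters, the DNA overlapped an element with enhancer activity in transgenic mouse embryos (VISTA), as recorded in RefSeq. That is 1.71% of the tiles, against 0.158% of all analysed tiles and 1.64% of the CpG-poor unmethylated tiles far from genes. They include 3 tiles 9013 bp from Msx3, a homeobox gene of the dorsal neural tube, in an element active in neural tube, hindbrain and midbrain, and 3 tiles 5013 bp from Nkx2-5, the cardiac homeobox gene, in a heart element. A further 2 tiles lay 76532 bp from Hmga2, an architectural chromatin factor of embryonic growth. Their element was active in neural tube, hindbrain, forebrain, branchial arch and genital tubercle. Of the 10 clusters, 2 lay in an element with forebrain activity.

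The level was low in every embryo. The median control level was 1.41% and the median EtOH-exposed level 1.504%, 776 tiles were under 2% in the controls and 970 under 5%. No embryo exceeded 50% at any of the tiles. Of 6084 measurements in controls 64 exceeded 20%, and of 17282 in EtOH-exposed embryos 112 did. The median tile had 782.5 reads per sample, and 496 tiles were measured in all 22 embryos. A level this low rests on few methylated reads per embryo, and reads that bisulfite failed to convert count as methylated.

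Between conditions, few tiles differed by more than a small amount. The level differed by less than 1 percentage point at 941 tiles (84.9%), by 2 points or more at 45, and the median difference was 0.10 points higher in EtOH-exposed forebrains. A DMR was called at a q under 0.01 (logistic likelihood-ratio test, Benjamini-Hochberg over all 114689 tiles) with a difference of at least 10 points. By this rule 1 tile (0.0903%) was higher in EtOH-exposed forebrains, against 0.0506% of all tiles, and 0 were lower, against 1.1%. A fall of 10 points was possible only at the 77 tiles with a control level of 10 to 20%. The rule that chose the tiles therefore largely fixed the count of lower DMRs. Without the size limit, 181 tiles (16.3%) were higher at a q under 0.01, against 8.82% of all tiles, and 107 (9.66%) were lower, against 12.9%. Of these 288 calls, 185 (64.2%) were differences under 1 point, against 43.8% of the calls over all tiles and 82.2% of those at promoter tiles. The promoter tiles gave similar shares, 16.1% higher and 9.94% lower.

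This test counts reads and takes no account of the spread between embryos. When that spread was estimated for each tile (F test with overdispersion), 0 of the 1108 tiles passed an adjusted p of 0.01, as did 0 of all analysed tiles. At an unadjusted p under 0.05, 25 tiles were higher, which is 2.26% against 1.83% of all tiles, and 44 lower, which is 3.97% against 3.95%. limma, run on log2 ratios of the methylated and unmethylated read sums, also called 0 at an adjusted p under 0.01, with 9 (0.812%) higher and 22 (1.99%) lower at an unadjusted p under 0.05, against 0.467% and 3.99% of all tiles. The smallest adjusted p was 0.0426 with overdispersion and 0.994 with limma. Every EtOH-exposed embryo lay above every control at 0 of the 1108 tiles, against 0.00262% of all tiles, and below every control at 0, against 0.0209%, so these counts do not set the tiles apart from the rest.

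The 16.3% and 9.66% also depended on which libraries were compared. Without EtOH 4, 5 and 6, 11 of 1107 tiles were higher and 291 lower, against 1.24% and 20.2% of all tiles. Without EtOH 1, 2, 3, 9, 12 and 14, 459 were higher and 35 lower, against 26.6% and 10.1% of all tiles. Without all 9 of them, which leaves libraries within the range of the controls at promoters, 44 were higher and 33 lower of 1093, against 3.76% and 4.39% of all tiles. These choices were made after seeing the data.

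The same libraries stood apart in the level over the tiles. The mean level per embryo had a median of 2.65% in the controls (2.32% to 3.26%) and of 2.65% in the EtOH-exposed group (1.61% to 3.97%). It was 3.77% to 3.97% in EtOH 4, 5 and 6, above every control, and 1.61% to 2.17% in EtOH 1, 2, 3, 9, 12 and 14, below every control. The group means were 2.74% ± 0.384 (SD, n = 6) and 2.60% ± 0.751 (SD, n = 16), a difference of −0.14 points. Weighted by coverage, the means were 4.13% and 4.19%, a difference of 0.0558 points in the other direction, and neither exceeded the SD of the controls. At the 970 tiles under 5%, the mean per embryo followed the mean of the promoter tiles across the 22 libraries (Pearson r = 0.999, Spearman rho = 0.991). This is a description, since both means of a library share its conversion and depth. Within a library, tiles far from genes were above promoter tiles by 1.53 points ± 0.170 (SD, n = 6) in controls and 1.35 ± 0.165 (SD, n = 16) in EtOH-exposed embryos, of which 8 lay below every control and 0 above. The part of the library in the level of an embryo was not tested. Among libraries with a promoter level of 0.911% to 1.37%, the mean was 2.52% ± 0.197 (SD, n = 4) in controls and 2.69% ± 0.0660 (SD, n = 6) in EtOH-exposed embryos. Among all libraries within the range of the controls at promoters, it was 2.74% ± 0.384 (SD, n = 6) and 2.72% ± 0.109 (SD, n = 7), so the direction turned with the libraries taken.

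The 138 tiles at 5 to 20% behaved otherwise. Their mean per embryo ran from 10.4% to 11.8% in the controls, with a median of 11.6%, and from 8.29% to 11.6% in the EtOH-exposed group, with a median of 10.4%. In 9 of 16 EtOH-exposed embryos it was below every control and in 0 above. The lowest 3 were EtOH 2, 9 and 14. Across the 22 libraries it did not rise with the promoter level as the other tiles did (Pearson r = 0.171, Spearman rho = 0.178). The difference of the group means was −1.14 points, and the control level that chose these tiles enters it. With the class set by the mean over all 22 embryos (143 tiles) it was −1.31 points, with 10 below every control and 2 above. With the class set by the EtOH-exposed level (144 tiles) it was −1.28 points, with 10 below and 1 above. Both of these classes were also set by levels that enter the difference, so they are descriptions and not independent of it. The methylated CpG-dense tiles far from genes were also lower in EtOH-exposed embryos, at 87.6% ± 2.18 (SD, n = 16) against 89.5% ± 0.839 (SD, n = 6), with 7 of 16 below every control.

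**Figure D4:**
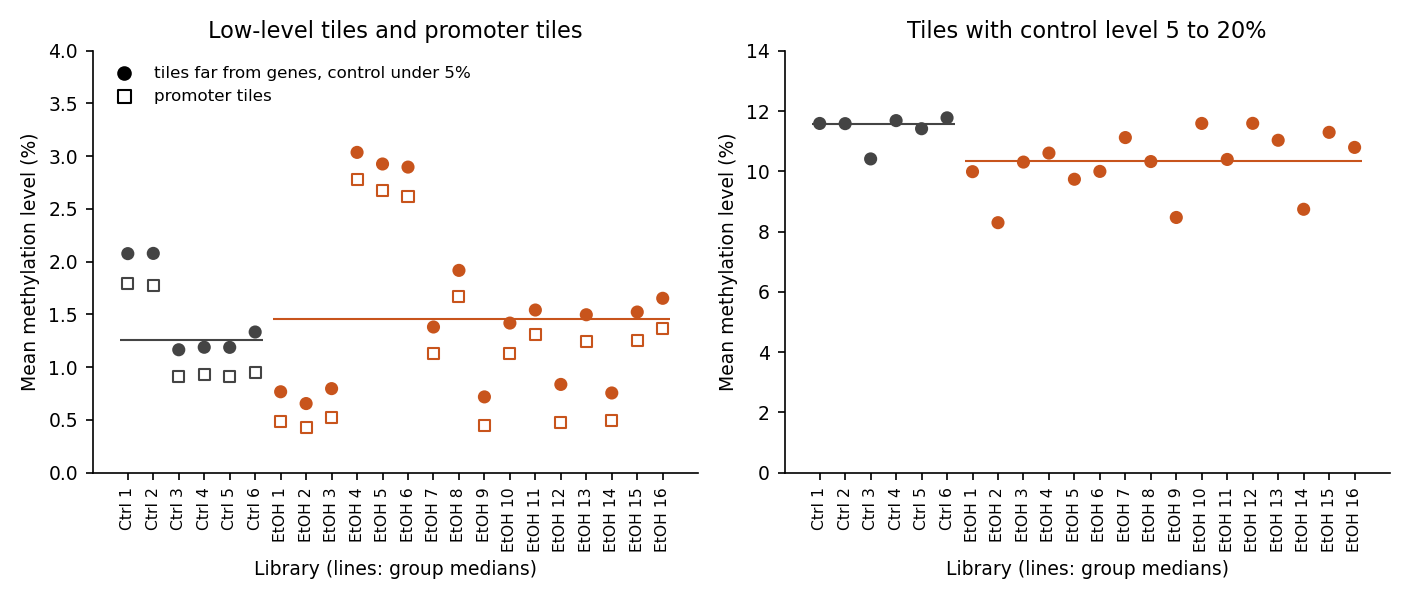
Left, mean methylation level (y axis, %) of each library (x axis) at the 970 tiles with a control level under 5% (circles) and at the promoter tiles (squares); EtOH 4, 5 and 6 lie above all controls in both and EtOH 1, 2, 3, 9, 12 and 14 below. Right, the mean at the 138 tiles with a control level of 5 to 20%, where 9 of 16 EtOH-exposed embryos lie below all controls; grey is control, orange EtOH-exposed and lines are group medians.

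The spread between embryos at single tiles differed by level. The SD over embryos was larger in the EtOH-exposed group at 788 tiles (71.1%), with a median of 1.03 points against 0.81 in the controls. The share was 81.4% at the promoter tiles and 77.4% of all analysed tiles. It was 74.3% at the tiles under 5% and 48.6% at the 138 tiles at 5 to 20%, where the median SD was 2.69 points in the EtOH-exposed group and 2.85 in the controls. At the 544 tiles measured in all 6 controls, EtOH 4 was above every control at 56.4% of its tiles and EtOH 2 below every control at 43.5%. At the promoter tiles these shares were 73.4% and 47.3%. They are the highest of 16 EtOH-exposed libraries, whose medians were 8.98% above and 8.94% below, and single controls lay above the other controls at up to 35.3% of tiles (Ctrl 2) and below them at up to 31.8% (Ctrl 6).

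The tile called a DMR, chr15:84654101-84654200, lay 9006 bp from Prr5, which encodes a subunit of mTOR complex 2. Its sequence is the last of those printed above. Its level was 10.3%, 6.76%, 11.2%, 24.0% and 19.7% in Ctrl 1 to 5, and in 15 EtOH-exposed embryos it ran from 9.89% to 34.1% with a median of 20.9%. The groups overlapped: 5 EtOH-exposed embryos were above every control, and none was below the lowest. The coverage-weighted level was 11.2% in controls and 21.2% in EtOH-exposed forebrains, so the difference of 10.01 points just met the limit (q = 2.95e-12, logistic test). The unweighted difference of the embryo means was 6.86 points, and the adjusted p was 0.826 with overdispersion. Ctrl 1 and Ctrl 2, the lowest 2 controls, supplied 419 and 414 reads, against 75 to 152 in the other 3. The call was lost without Ctrl 1, without Ctrl 2 (7.49 points) and without any 1 of EtOH 4, 5, 10, 11, 12, 13 and 14.

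The largest decreases were at a pair of touching tiles, chr14:55815001-55815100 and chr14:55815101-55815200, 8489 bp and 8389 bp from Gm41159. The nearest protein-coding gene was Nfatc4, a calcium-dependent transcription factor of neurons and other cells, 9595 bp away. At the left tile the controls had a lowest level of 12.4%, a median of 16.2% and a highest of 24.4%, and the EtOH-exposed embryos 3.25%, 9.22% and 16.4%. Of the 16 EtOH-exposed embryos, 12 were below every control and 0 were above. The coverage-weighted level went from 18.6% to 8.64%, a difference of −9.95 points that fell short of the 10-point limit (q = 1.76e-33, logistic test), with an adjusted p of 0.826 with overdispersion. At the right tile the medians were 15.1% and 10.1%, and 10 of 16 were below every control. The 12 embryos at the left tile include libraries with high, low and middle promoter levels, and the part of the library there was not tested. Reads at that tile ran from 191 to 504 in controls and from 396 to 1797 in EtOH-exposed embryos. The left tile passed the DMR rule without any 1 of Ctrl 1, 2, 3 and 6 or of EtOH 1, 3, 7, 10, 12, 13 and 15, and at a coverage of 20 reads, with differences of −11.03 to −10.04 points. The right tile passed it without Ctrl 3, at −10.2 points.

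At chr11:28365601-28365700, near Gm6685, the level was 0.717% to 3.46% in the 5 broad libraries, on 533 to 1637 reads, and 13.6% to 34.6% in the 10 other libraries with a value, on 20 to 262 reads. The weighted levels of 11.9% and 3.81% at that tile therefore rest on which libraries supplied the reads, and the medians were 24.9% in controls and 13.6% in EtOH-exposed embryos. Ctrl 1 to 5 were at 19.2% to 27.5%, and the unweighted control mean was 20.5%. The tile thus met the 20% limit only through the 558 reads of Ctrl 6, at 0.717%. The difference of −8.13 points became −21.2 without Ctrl 6, the broad library among the controls, and −3.79 without Ctrl 1. The comparison of broad with other libraries took only tiles measured in enough libraries of both kinds. Of 1072 such tiles this was the only 1 (0.0933%) at which the measured broad libraries lay below all others. The share was 0.325% of the 98613 such tiles among all analysed tiles. The broad libraries lay above all others at 23 tiles (2.15%), against 1.25% of these 98613. Near Gm38992, 5084 bp away and 149918 bp from Tshz3, a teashirt family factor, the controls ran from 0.980% to 28.8% and the EtOH-exposed embryos from 1.92% to 29.5%. At chr16:5536601-5536700, 52736 bp from Gm41416, the medians were 17.6% in controls and 12.9% in EtOH-exposed embryos, and 11 of 15 EtOH-exposed embryos were below every control.

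The increases after the DMR were small. The tile near Cdc42ep1, an effector of the small GTPase Cdc42, went from a weighted level of 13.2% to 18.5%, but EtOH-exposed embryos ran from 0% to 30.8% with 5 of them above every control and 3 below. Its difference of 5.32 points was 2.47 without EtOH 5 and 8.27 without Ctrl 2. Near Gm33078, in a VISTA element of branchial arch and heart, the medians were 13.7% and 15.8%, and the weighted difference of 3.96 points was 0.774 without Ctrl 2. Near Gm52263, 171357 bp from the Notch target Hes1, the weighted difference was 3.19 points, the unweighted one −4.13, and the weighted one without Ctrl 2 0.0768. At chr16:4475101-4475200, near the adenylyl cyclase gene Adcy9, the controls were at 0% to 0.823% and the highest EtOH-exposed embryos were EtOH 4, 5 and 15, at 4.73%, 4.03% and 2.94%, the last on 34 reads. EtOH 4, 5 and 6 also had the highest promoter levels, and without them the difference at this tile was 0.30 points.

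**Figure D5:**
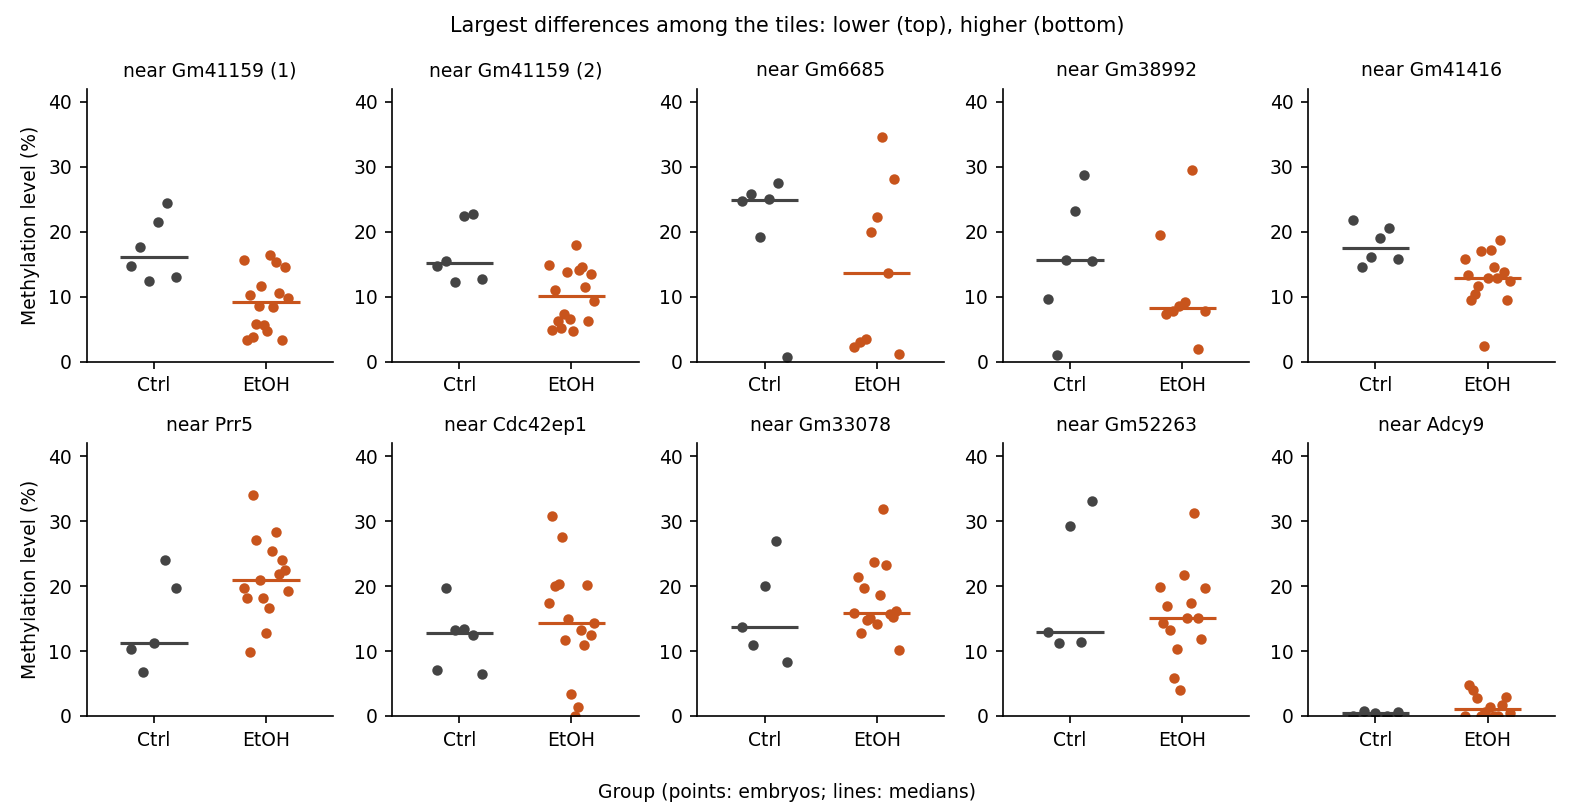
Methylation level (y axis, %) of each embryo in the control and EtOH-exposed groups (x axis) at 10 tiles, named by the nearest gene. The tiles are those with the largest decreases and the largest increases at a q under 0.01, in equal number. Points are embryos and lines medians. The groups overlap at each of the 10 tiles, and 12 of 16 EtOH-exposed embryos lie below all controls at the first tile near Gm41159.

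The clusters near developmental genes stayed at low levels in both groups. The 287 tiles with a developmental nearest gene had a median control level of 1.41% and a median EtOH-exposed level of 1.53%, and 242 of them (84.3%) differed by less than 1 point. At a q under 0.01, 50 (17.4%) were higher and 29 (10.1%) lower, and among the other 821 tiles 131 (15.96%) and 78 (9.50%) were, against 8.82% and 12.9% of all analysed tiles. Of the 19 tiles in VISTA elements 8 (42.1%) were higher and 1 (5.26%) lower, against the same 8.82% and 12.9% of all tiles, with a median difference of 0.37 points and 15 under 1 point. Over all 1108 tiles the shares were 16.3% and 9.66%. The 19 tiles lay in 10 clusters, so neighbouring tiles count more than once. Over the 23 clusters named as the largest or as developmental, the median cluster level was 0.609% to 3.06% in controls and 0.704% to 3.85% in EtOH-exposed embryos. In 22 of them the EtOH-exposed embryos, more in number and with libraries above and below every control at promoters, ranged over all the control values. The exception was the cluster near Tbr1, a T-box factor of cortical neurons, where Ctrl 1 was at 11.1% and the other embryos were at 5.41% or below.

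At the CpG-richest tile of each of these 23 clusters the weighted difference lay between −0.71 and 0.94 points. The smallest of the 23 two-sided exact permutation p-values of embryo levels was 0.168, at the Cdkn1c tile, and the largest was 0.999. At the tiles with the 5 largest differences in each direction, the exact permutation test gave 0.00185 (left tile near Gm41159) to 0.539 (near Gm33078). Those tiles were picked for their differences, so these p-values are a description only. The Cdkn1c tile had a lowest level of 1.15%, a median of 2.67% and a highest of 6.67% in controls, and 0.652%, 1.77% and 4.31% in EtOH-exposed embryos. The Mnx1 tile printed above ran from 1.19% to 2.28% in controls (n = 5) and from 0.309% to 4.19% in EtOH-exposed embryos, of which 9 were below and 3 above every control. At 19 of the 23 tiles the highest embryo was EtOH 4 or EtOH 5. The Irx5 tile at chr8:92460901-92461000, with 20 CpGs, was at 0.546% to 1.64% in controls and 0.292% to 3.22% in EtOH-exposed embryos.

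Single embryos reached higher levels at a few tiles. The highest level in an EtOH-exposed embryo was 40.4% at chr5:114560601-114560700 near Fam222a, in EtOH 3 on 52 reads (95% Wilson interval 28.2% to 53.9%, which covers counting error only). The highest in a control was 39.5% at chr2:61815901-61816000 near Tbr1, in Ctrl 1 on 114 reads (31.0% to 48.6%), where the other 4 controls were at 3.03% or below and the EtOH-exposed embryos at 7.69% or below. Some tiles lay close to the limit of the rule. Just inside it were the tiles near Gm40853, Ercc4 and Gm36405, with control levels of 19.9%, 19.8% and 19.8%. Just outside were tiles near Gm33007, Celrr and Gm18286 at 20.7%, 20.9% and 21.1%, of which the tile near Gm33007 (chr4:4342901-4343000) had a level of 41.5% in EtOH-exposed forebrains.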

How the data were processed

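RRBS of 22 forebrains was analysed from tables of single cytosines. Per the submitters' processing notes and the study's methods, the authors trimmed the reads (Trim Galore 0.3.3), aligned them to mm10 (BSMAP 2.90) and deposited, for each position, the count of reads (coverage) and the percent of C and T. Methylated reads were taken as coverage times percent C, rounded to whole reads. Positions listed at 0 reads, at most 1380 in a file, were dropped. Bases with at least 10 reads were summed into 100 bp tiles on chromosomes 1 to 19, in the tile where the base lies. RefSeq and GENCODE M21 annotations and the sequence were those of GRCm38. A tile was called a DMR at a q under 0.01 (logistic likelihood-ratio test over all 114689 analysed tiles, as in MethylKit, with Benjamini-Hochberg adjustment) where the levels, weighted by coverage, lay 10 or more points apart. The F test divides the likelihood ratio by an overdispersion estimated for each tile. limma 3.58.1 in R 4.3.3 was used on log2 ratios with 0.5 added. The scripts were tested on simulated data. The tiles, gene families and tests were chosen with earlier results of these data known, and the family list, made of symbol patterns, leaves out some regulators such as Lbx1.

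Tiles named are those of the 10 largest clusters and the 15 largest with a developmental nearest gene (ties by genome order, and the tile with most CpGs of each), the DMR, the 5 largest differences in each direction at a q under 0.01, the 5 highest levels in a single embryo of each group, the 3 tiles on each side of the 20% limit and the 5 farthest from a start site. Sequences are of tiles of the 10 largest clusters and the DMR, of which 5 were picked with values known. Alternatives covered the coverage minimum, annotation, limits, weighting, CCGG sites, tests, each sample and library groups. The replicate numbers do not name litters, and same-numbered samples deviated together (r over 0.1) in 1 of 6 pairs. Sex chromosomes were not used here. Scripts ran in Python 3.11.15 with scipy 1.17.1.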

Additional observations from a re-analysis of the deposited data

Results flagged for a closer look

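In 15 of 78 groups of 5 or 6 controls tested, the highest or lowest control lay farther from the next than Dixon's 95% limit allows. Chance passes about 1 in 20 groups that are independent and not chosen by their values, which these are not: 4 of the 15 are tiles named for a high level in a control, and 3 are clusters that hold another of the 15. The groups of 16 EtOH-exposed embryos were not tested. Over the tiles at 5 to 20%, Ctrl 3 had a mean of 10.4% and the next control 11.4%. Over the methylated CpG-dense tiles far from genes, Ctrl 6 had a mean of 87.9% and the next control 89.4%. Ctrl 6 was also highest at the Cdkn1c tile (6.67% on 135 reads, next 3.04%) and near Gm9700 (35.4% on 48 reads, next 10.2%). It was lowest at the tile near Gm6685 (0.717% on 558 reads, next 19.2%). At the tile near D130051D11Rik in the Wnt7b cluster it was also lowest (0% on 40 reads, next 1.21%). Over that cluster it was highest, at 2.81% against 2.14%. Ctrl 1 was highest at the Tbr1 tile (39.5% on 114 reads, next 3.03%) and over the Tbr1 cluster (11.1%, next 4.06%). It was also highest near Cttnbp2nl (36.7% on 30 reads, next 18.5%), Gm36156 (1.55% on 906, next 0.696%) and Msx3 (3.72% on 242, next 1.38%). Ctrl 2 was highest at the tile near Gm15833 (38.3% on 183 reads, next 15.5%). It was also highest at the tile near LOC115490477 (2.37% on 1180 reads, next 0.952%) and over the cluster there (1.70%, next 1.09%).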

How the results depend on the processing

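The rule found 496 tiles when all 22 samples were required and 692 at 10 kb or more from a start site, and between 754 and 1569 under the other alternatives. Clusters numbered 534 with a gap of 5000 bp. The difference of the mean level was −0.232 to −0.0367 points with 1 sample left out in turn. It was −0.426 without EtOH 4, 5 and 6, 0.314 without EtOH 1, 2, 3, 9, 12 and 14, and −0.0223 without these 9. These choices were made after seeing the data. For DMRs with a higher level, the counts follow with the share of all tiles in brackets. There were 0 with overdispersion (0%), unweighted means (0.0366%), a coverage of 5 (0.0453%) or of 20 reads (0.0380%) and CCGG sites left out (0.0209%). Also 0 were called with at most 50 reads per sample (0.0209%) and with limma (0%), and 2 passed a limit of 5 points (0.248%). Without EtOH 4, 5 and 6 or all 9 libraries 0 were also called. The shares of all tiles are not given for these settings, so their counts are not compared. For DMRs with a lower level the counts were 6 at 5 points, against 4.21% of all tiles, and 1 at a coverage of 20 reads, against 0.692%. A fall of 5 points was possible only at the 138 tiles with a control level of 5 to 20%. At a q under 0.01 without a size limit, 0 were higher and 0 lower with overdispersion or with limma, against 0% of all tiles. With at most 50 reads 0 were higher and 0 lower, against 0.0244% and 0.977% of all tiles. The counts were 11 higher and 291 lower without EtOH 4, 5 and 6. They were 459 and 35 without EtOH 1, 2, 3, 9, 12 and 14, and 44 and 33 without all 9. The shares of all tiles at these library choices are given in the Results above. With 1 sample left out, higher DMRs numbered 0 (as without Ctrl 1, against 0.0436% of all tiles) to 1 (as without Ctrl 3, against 0.0689%). Lower DMRs numbered 0 (as without Ctrl 4, against 0.997%) to 2 (as without Ctrl 3, against 1.26%). Tiles at a q under 0.01 numbered 82 (without EtOH 4) to 214 (without EtOH 14) higher and 49 (without Ctrl 2) to 145 (without EtOH 4) lower. At the same settings the shares of all tiles were 4.42% and 10.9% higher and 8.73% and 13.6% lower. The tile near Gm52263 turned to −4.13 points with unweighted means and with at most 50 reads, and the tile near Cdc42ep1 to −1.77 without the 9 libraries. The cause of these changes was not tested.

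With the replicate number as a block over replicates 1 to 6, DMRs were 0 higher and 3 lower, against 0.0729% and 5.45% of all tiles, and 329 tiles were higher and 101 lower at a q under 0.01, against 17.7% and 18.8%. The same 12 samples without the block gave 1 DMR higher and 2 lower, against 0.0668% and 3.43% of all tiles, and 348 tiles higher and 85 lower, against 18.9% and 16.9%. The numbers share no stated litter, 1 of 6 controls correlated best with its own number, and r ran from −0.148 to 0.172.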

Other observations

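Of 428 pairs of touching unmethylated tiles, 257 (60.0%) had differences of the same sign, against 63.6% of such pairs among promoter tiles and 64.3% among all analysed tiles. In 2 pairs both tiles were lower in EtOH-exposed forebrains by 2 points or more, while in 0 pairs both were higher by that much. These pairs share libraries and sometimes fragments.

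The smallest overdispersion p among the tiles was at chr11:30755001-30755100, which was named after its values were seen. It lay 16675 bp from Psme4, which encodes a proteasome activator, and 40 bp from a GENCODE start site of Gm12101. The controls had levels of 0.351% to 2.86% with a median of 2.31% (n = 5), and the EtOH-exposed embryos 0% to 1.205% with a median of 0.421% (n = 14). The groups overlapped, the weighted level went from 2.20% to 0.494%, and the adjusted p was 0.0426 with overdispersion (F test over all tiles).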
